A study of Homo sapiens with 12 samples.

Results

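Transcripts of 50 genes of mitosis, among them the mitotic kinesins and the genes of the kinetochore and spindle checkpoint, were followed in SDC3-knockout and wild-type THP-1 macrophages with and without interferon gamma (IFN-γ). The genes were taken as a list of symbols named by function, and all 50 were found among the 58051 genes of the count table. The list was chosen with earlier results of these data known. Shares of all tested genes printed beside its counts are therefore a description. THP-1 is a human monocytic leukaemia line that differentiates into adherent macrophage-like cells under the phorbol ester PMA, and SDC3 encodes the heparan sulphate proteoglycan syndecan-3. Messenger RNA was sequenced in 12 libraries, 3 each from SDC3-knockout cells with IFN-γ, wild-type cells with IFN-γ, knockout cells without IFN-γ and wild-type cells without it. All 4 groups had 20 ng/ml PMA for 24 h and a change of medium, and the treated groups had recombinant human IFN-γ from the following day. The knockout was made with CRISPR/Cas9. The labels did not give the edited position, whether the knockout cells were 1 clone or several lines, the dose and duration of IFN-γ, or the harvest time of untreated cells. Separate cultures behind the 3 libraries of a group were not stated either, and p-values therefore cover the spread between libraries only, which may be technical.

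Libraries held 23616738 to 29426415 assigned counts, and 3 counts, used as the detection floor, amounted to 0.0925 to 0.130 CPM (the counts of a gene relative to the TMM-adjusted size of its library). SDC3 itself measured 237 to 244 CPM in knockout libraries with IFN-γ, against 572 to 590 CPM in wild-type libraries with IFN-γ. Without IFN-γ it measured 43.9 to 49.9 CPM in knockout libraries, against 196 to 252 CPM in wild-type libraries, so the labels of genotype were borne out in direction while SDC3 transcript remained in every knockout library. The macrophage label was checked with 14 marker genes, all of which had 3 counts or more in at least 1 library of every group. Their summed level was 7435 to 7614 CPM in knockout and 7205 to 7317 CPM in wild-type libraries with IFN-γ, and 4979 to 5120 CPM in knockout and 4661 to 4762 CPM in wild-type libraries without it.

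A cell enters mitosis when cyclin B bound to the kinase CDK1 becomes active, and the chromosomes are then compacted by condensin, captured at their kinetochores by spindle microtubules and moved by kinesin motors. The spindle checkpoint proteins BUB1, BUBR1 (the product of BUB1B), BUB3, MAD2 and the kinase MPS1 (the product of TTK) hold back the ubiquitin ligase APC/C until every kinetochore is attached, after which APC/C with CDC20 destroys securin and cyclin B and the sister chromatids part. Transcripts of most of these proteins are made in G2 and mitosis and are shut off in resting cells, which is why they are widely read as a sign of cycling cells. PMA is known to slow the division of THP-1 cells as they differentiate, and IFN-γ is known as a growth-restraining cytokine in many cell types.

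Genes switched on in G2 and mitosis are known to carry 2 short elements near the transcription start: TTTGAA, the core of the cell cycle genes homology region that the MuvB protein LIN54 contacts, and CCAAT, the site of the factor NF-Y. Because the 50 genes moved together in the counts, windows from 250 bases before to 50 bases after the RefSeq gene start (GRCh38.p14) were searched for both. A match is TTTGAA as printed or its reverse complement TTCAAA. For the other element it is CCAAT as printed or its reverse complement ATTGG. Windows were in the RefSeq table for 43 of the 50 genes and numbered 51. TTTGAA stood in 66.7% of these windows, against 15.2% of all 35116 windows in the table, and CCAAT in 72.5%, against 34.6%. Both stood in 51.0% of the windows, against 5.9% of all windows. Matches overlapped each other 5 times. The 150 bases before the start are printed for 5 genes along the gene's strand, 5′ to 3′, with matches to either element in capitals. CCNB2 shows repeated CCAAT, PLK1 and PRC1 show the pair of elements at its simplest, HMMR shows a doubled TTTGAA, and KIF2C has no match in its window. The stretches lie at chr15:59104996-59105145 (plus strand) for CCNB2, chr16:23678739-23678888 (plus) for PLK1, chr15:90994536-90994685 (minus) for PRC1, chr5:163460482-163460631 (plus) for HMMR and chr1:44739687-44739836 (plus) for KIF2C.
CCNB2: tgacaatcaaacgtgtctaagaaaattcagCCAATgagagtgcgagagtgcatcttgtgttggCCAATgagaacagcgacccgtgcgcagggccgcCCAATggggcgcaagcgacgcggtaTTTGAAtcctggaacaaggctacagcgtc
PLK1: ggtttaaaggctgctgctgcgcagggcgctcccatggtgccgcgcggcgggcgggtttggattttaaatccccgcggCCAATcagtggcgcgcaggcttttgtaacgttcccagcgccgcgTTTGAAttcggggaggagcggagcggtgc
PRC1: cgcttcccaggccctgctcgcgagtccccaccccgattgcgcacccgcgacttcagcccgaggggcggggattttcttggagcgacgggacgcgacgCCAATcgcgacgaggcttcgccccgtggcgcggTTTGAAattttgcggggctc
HMMR: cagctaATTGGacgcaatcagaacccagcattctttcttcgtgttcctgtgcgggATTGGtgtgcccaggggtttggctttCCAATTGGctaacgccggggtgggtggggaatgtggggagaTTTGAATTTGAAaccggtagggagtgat
KIF2C: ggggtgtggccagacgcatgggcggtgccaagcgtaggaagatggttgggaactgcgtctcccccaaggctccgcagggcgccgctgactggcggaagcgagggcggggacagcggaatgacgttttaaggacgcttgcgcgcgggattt
In CCNB2 and PLK1 the TTTGAA match began 29 bases before the start, with the nearest CCAAT at 54 and 73 bases. In PRC1 these distances were 20 and 53 bases. A match of letters is a description and does not show that a factor binds there.

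Of the 50 genes, 49 were lower in knockout than in wild-type macrophages after IFN-γ, where 24.3% of all tested genes were lower. For 42 the response to IFN-γ was called as a further fall in the knockout, where 7.86% of all tested genes had a lower response. The summed level of the 50 genes was 304 to 319 CPM in knockout libraries with IFN-γ and 602 to 670 CPM in wild-type libraries with IFN-γ. It was 2159 to 2216 CPM in untreated knockout and 2376 to 2650 CPM in untreated wild-type libraries. The median gene measured 2.28 to 2.47 CPM in knockout and 6.95 to 8.65 CPM in wild-type libraries with IFN-γ. Without IFN-γ it measured 30.4 to 31.3 CPM in knockout and 33.0 to 37.2 CPM in wild-type libraries. No library of 1 group reached into the range of another in these sums. In bulk RNA a lower level can come from fewer cells that express a gene or from less RNA in each cell, and these cannot be told apart.

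Knockout was compared with wild type with IFN-γ, the comparison named in the study's design text, by edgeR's quasi-likelihood test over all 17119 tested genes, with a call at an adjusted p under 0.05. Of the 50 genes, 49 were lower in the knockout, 0 were higher and 1, BUB3, was not called. Over all tested genes, 24.3% were lower and 22.9% higher, 47.2% in all. The median log2 fold change of the 50 genes was -1.60, against -0.01 over all tested genes. Among them 39 were lower by at least 1 on the log2 scale, where 7.15% of all tested genes were, and 18 were lower by more than 4-fold. The knockout and wild-type libraries did not overlap for 49 of the 50 genes, all lower in the knockout, where 27.5% of all tested genes had knockout libraries wholly below wild-type libraries. The exception was KIF18A. All 50 genes passed the filter on low counts, which the untreated libraries met by themselves, and 45 had at least 10 counts in each knockout library with IFN-γ. CDC25C, CENPA, SPC24, SPC25 and KIF18A did not. The members lie on 19 chromosomes.

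Markers of other cells were read beside these results. Of 10 markers of undifferentiated monoblasts, such as MPO and ELANE, all but CD34 had 3 counts or more in some library of every group. Their summed level was 154 to 168 CPM in knockout and 80.8 to 85.7 CPM in wild-type libraries with IFN-γ, and 540 to 567 CPM in knockout and 304 to 333 CPM in wild-type libraries without it. It was lower with IFN-γ, as the mitotic genes were, and higher in knockout than in wild type, where the mitotic genes were lower, and its part in the results was not tested. Of 5 B cell markers, MS4A1 was under 3 counts in every library, and the sum was 8.43 to 10.4 CPM in treated knockout and 25.1 to 28.6 CPM in treated wild-type libraries. Of 5 fibroblast markers, COL1A2, COL3A1 and DCN were under 3 counts in every library, and the sum was 16.7 to 20.2 CPM in treated knockout and 8.26 to 10.1 CPM in treated wild-type libraries. Without IFN-γ the B cell sum was 4.87 to 5.58 CPM in knockout and 13.1 to 17.8 CPM in wild-type libraries. The fibroblast sum there was 12.7 to 15.9 CPM in knockout and 11.1 to 13.6 CPM in wild-type libraries, with overlap. The part of these markers in the results was not tested. T cell markers, of which CD3E, CD3G and CD2 were under 3 counts in every library, summed to 5.84 CPM at most, epithelial markers to 2.48 CPM and erythroid markers to 0.240 CPM.

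**Figure D1:**
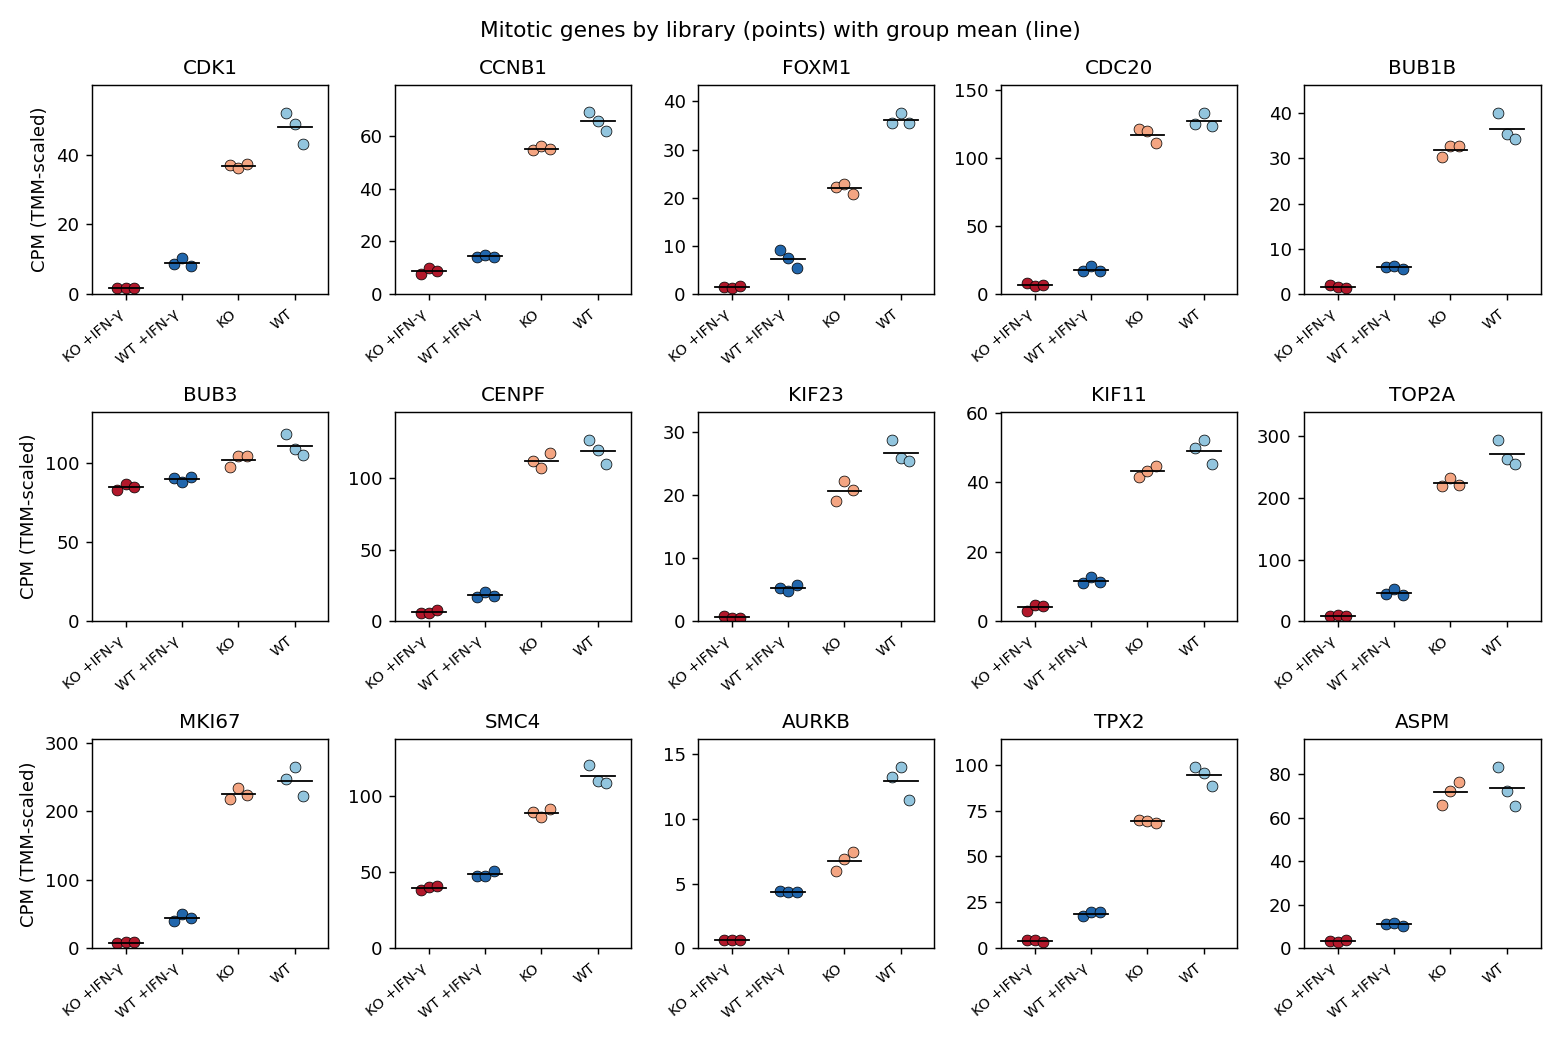
CPM (TMM-scaled, linear axis from 0) of 15 mitotic genes in each library, with groups from left to right as knockout with IFN-γ, wild type with IFN-γ, knockout without IFN-γ and wild type without IFN-γ. Points are libraries and lines are means of 3. The mean of knockout libraries with IFN-γ is the lowest of the 4 in each of the 15 panels, BUB3 included, whose difference from wild type was not called.

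Of the 8 mitotic cyclins, entry kinases and FOXM1, all 8 were lower in the IFN-γ-treated knockout, 4 of them by at least 1 on the log2 scale, with a median of -1.19. CDK1, the kinase that drives entry into mitosis, measured 1.70, 1.87 and 1.84 CPM in knockout libraries with IFN-γ, against 8.58, 10.4 and 7.91 CPM in wild-type libraries with IFN-γ. Without IFN-γ, CDK1 stood at 37.0, 36.1 and 37.2 CPM in knockout and 52.0, 48.7 and 43.1 CPM in wild-type libraries. The treated knockout libraries lay close together and well under every treated wild-type library, and the log2 fold change was -2.31 with IFN-γ (SE 0.14, adjusted p = 4.0e-15) and -0.38 without it (SE 0.074, adjusted p = 6.7e-05). FOXM1, the forkhead factor that activates G2 and mitosis genes, measured 1.42, 1.30 and 1.76 CPM in treated knockout libraries, against 9.22, 7.49 and 5.43 CPM in treated wild-type libraries. Without IFN-γ, FOXM1 stood at 22.3, 22.9 and 20.8 CPM in knockout and 35.5, 37.6 and 35.5 CPM in wild-type libraries. The FOXM1 groups were apart in both treatments (-2.30, SE 0.17, adjusted p = 5.0e-13 with IFN-γ; -0.72, SE 0.094, adjusted p = 1.1e-07 without), and 15.9% of its exon bases overlap ITFG2 on the opposite strand, whose reads cannot be told apart without strand.

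CCNB1, the cyclin partner of CDK1, had a smaller difference than CDK1. It measured 7.70, 9.94 and 8.72 CPM in treated knockout libraries and 14.2, 14.8 and 14.1 CPM in treated wild-type libraries. Without IFN-γ, CCNB1 stood at 54.6, 56.2 and 55.1 CPM in knockout and 69.2, 65.9 and 62.1 CPM in wild-type libraries. Knockout libraries were below wild-type libraries in both treatments without overlap, at -0.71 with IFN-γ (SE 0.087, adjusted p = 3.5e-08) and -0.25 without it (SE 0.061, adjusted p = 0.0011). AURKA, the centrosomal kinase of spindle assembly, had the smallest difference of the 8: 26.7, 25.4 and 28.3 CPM in treated knockout libraries, against 33.5, 36.2 and 32.2 CPM in treated wild-type libraries (-0.34, SE 0.066, adjusted p = 6.0e-05). Its levels without IFN-γ were 53.9, 56.0 and 58.7 CPM in knockout and 60.1, 65.9 and 64.7 CPM in wild-type libraries (-0.18, SE 0.058, adjusted p = 0.011), and that call was lost without the first untreated knockout library (adjusted p = 0.066) or the second untreated wild-type library (adjusted p = 0.058). The S-to-M cyclin CCNA2 averaged 3.67 ± 0.520 CPM in treated knockout and 9.74 ± 0.833 CPM in treated wild-type libraries (SD, n = 3 each; log2 fold change -1.41). CCNB2, a second B-type cyclin, averaged 4.59 ± 0.697 CPM in treated knockout and 8.18 ± 1.06 CPM in treated wild-type libraries (-0.84), and PLK1, the polo-like kinase of mitotic entry and exit, 3.90 ± 0.183 CPM in treated knockout and 7.68 ± 0.598 CPM in treated wild-type libraries (-0.98), both with the promoter elements printed above. CDC25C, the phosphatase that activates CDK1, averaged 0.382 ± 0.0993 CPM in treated knockout and 1.67 ± 0.764 CPM in treated wild-type libraries (-2.09), at 8 counts in its lowest library.

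All 3 genes of anaphase promotion and its substrate securin were lower in the treated knockout. CDC20, the activator of APC/C and the target of the checkpoint, measured 8.11, 6.27 and 6.35 CPM in knockout libraries with IFN-γ, against 16.6, 20.5 and 16.9 CPM in wild-type libraries with IFN-γ (-1.39, SE 0.095, adjusted p = 1.1e-13). Without IFN-γ, CDC20 stood at 121, 119 and 111 CPM in knockout and 125, 133 and 123 CPM in wild-type libraries. It was thus among the most abundant of the 50 in untreated libraries. Its genotype difference was not called there (-0.12, SE 0.059, adjusted p = 0.098), although the libraries did not overlap. That difference was called with library totals (adjusted p = 0.035) and with the compared libraries alone (adjusted p = 0.028). UBE2C, the ubiquitin-conjugating enzyme that works with APC/C, measured 1.58, 1.02 and 0.918 CPM in treated knockout libraries, against 4.89, 6.84 and 3.91 CPM in treated wild-type libraries (-2.17, SE 0.19, adjusted p = 5.6e-11). Without IFN-γ, UBE2C stood at 20.9, 19.9 and 19.5 CPM in knockout and 28.9, 29.9 and 27.8 CPM in wild-type libraries. Knockout was the lower genotype for UBE2C in both treatments (-0.52 without IFN-γ, adjusted p = 6.2e-05). PTTG1, which encodes securin, measured 2.51, 2.20 and 2.45 CPM in treated knockout libraries, against 4.09, 3.95 and 3.61 CPM in treated wild-type libraries (-0.70, SE 0.16, adjusted p = 3.9e-04). Untreated PTTG1 levels were 19.7, 16.2 and 16.9 CPM in knockout and 24.2, 21.98 and 18.7 CPM in wild-type libraries, with 1 knockout library inside the wild-type range (-0.29, SE 0.095, adjusted p = 0.01; adjusted p = 0.076 without the second untreated knockout library and 0.089 without the first untreated wild-type library). Copies found by name could have taken reads from these genes, and their sequences were not compared. CDC20P1 had 1946 and UBE2CP5 363 counts over all 12 libraries, PTTG2 13 and PTTG3P 18.

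Among the 5 spindle checkpoint genes, TTK, BUB1B, MAD2L1 and BUB1 were lower in the treated knockout by at least 1 on the log2 scale, while BUB3 was not called. TTK, the kinase that starts checkpoint signalling at kinetochores, measured 0.973, 1.55 and 1.53 CPM in knockout libraries with IFN-γ, against 5.09, 7.75 and 6.17 CPM in wild-type libraries with IFN-γ (-2.23, SE 0.19, adjusted p = 9.3e-12). Without IFN-γ, TTK stood at 25.7, 31.2 and 27.0 CPM in knockout and 39.4, 35.7 and 32.0 CPM in wild-type libraries (-0.35, adjusted p = 0.0029). All knockout libraries of TTK were below all wild-type libraries in each treatment. BUB1B, whose product BUBR1 is part of the complex that inhibits APC/C, measured 1.99, 1.59 and 1.30 CPM in treated knockout libraries, against 6.09, 6.27 and 5.65 CPM in treated wild-type libraries (-1.89, SE 0.15, adjusted p = 2.3e-12). Untreated BUB1B levels were 30.3, 32.8 and 32.7 CPM in knockout and 40.1, 35.4 and 34.2 CPM in wild-type libraries. The untreated groups of BUB1B were close but did not overlap (-0.19, SE 0.077, adjusted p = 0.039). That untreated call was lost by DESeq2 (adjusted p = 0.062), without any 1 of the 3 untreated knockout libraries (adjusted p = 0.059 to 0.16) and without the first untreated wild-type library (-0.12, adjusted p = 0.23). In BUB1B 10.2% of exon bases are shared with the read-through gene BUB1B-PAK6. MAD2L1, which encodes the checkpoint protein MAD2, measured 1.42, 1.87 and 2.52 CPM in treated knockout libraries, against 4.41, 5.02 and 4.69 CPM in treated wild-type libraries (-1.27, SE 0.16, adjusted p = 5.9e-08). Without IFN-γ, MAD2L1 stood at 15.2, 16.3 and 14.5 CPM in knockout and 21.5, 20.2 and 18.6 CPM in wild-type libraries. Its knockout libraries were lower in both treatments (-0.39 without IFN-γ, adjusted p = 0.0013). BUB1, the checkpoint kinase that recruits other checkpoint proteins, averaged 6.09 ± 1.18 CPM in treated knockout and 13.95 ± 1.95 CPM in treated wild-type libraries (-1.20; SD, n = 3 each).

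BUB3, a checkpoint scaffold that outside mitosis also has known roles, stood apart from the other checkpoint genes by its level and its small changes. It measured 82.9, 86.5 and 85.0 CPM in knockout libraries with IFN-γ, against 90.3, 88.2 and 91.4 CPM in wild-type libraries with IFN-γ. Without IFN-γ, BUB3 stood at 97.3, 104 and 104 CPM in knockout and 118, 109 and 105 CPM in wild-type libraries. Knockout libraries of BUB3 lay below its wild-type libraries in each treatment without overlap. The genotype difference with IFN-γ was -0.09 and was not called (SE 0.05, adjusted p = 0.16). It was called with library totals in place of TMM scaling, at -0.17 (adjusted p = 0.0062), a scaling that shifted the median of all genes by -0.08 in this comparison. The untreated difference of BUB3 was -0.11 (SE 0.048, adjusted p = 0.047), at the edge of the threshold. It was not called with no low-count filter (adjusted p = 0.056), without the first untreated wild-type library (-0.065, adjusted p = 0.28) or without the first untreated knockout library (-0.080, adjusted p = 0.23), among other settings. Library totals also moved the response of BUB3 to IFN-γ, to -0.57 in the knockout and -0.55 in the wild type, against -0.27 in the knockout and -0.30 in the wild type with TMM scaling.

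All 8 centromere and kinetochore genes were lower in the treated knockout, 7 of them by at least 1 on the log2 scale, with a median of -1.45. SPC25, a subunit of the microtubule-binding NDC80 complex, measured 0.405, 0 and 0.459 CPM in knockout libraries with IFN-γ, against 2.004, 2.20 and 1.65 CPM in wild-type libraries with IFN-γ (-2.73, SE 0.36, adjusted p = 1.6e-07). Without IFN-γ, SPC25 stood at 8.49, 9.02 and 7.42 CPM in knockout and 9.11, 8.17 and 6.47 CPM in wild-type libraries. One treated knockout library had 0 counts of SPC25, and the untreated groups overlapped (0.073, SE 0.17, adjusted p = 0.75). NDC80, which encodes the subunit that gives the complex its name, had the smallest difference of the 8: 3.65, 3.22 and 3.75 CPM in treated knockout libraries, against 6.69, 7.68 and 6.34 CPM in treated wild-type libraries (-0.97, SE 0.13, adjusted p = 2.3e-07). Untreated NDC80 levels were 16.95, 17.6 and 18.3 CPM in knockout and 27.9, 26.7 and 21.8 CPM in wild-type libraries, a step of -0.53 (SE 0.09, adjusted p = 9.8e-06). NDC80 was therefore lower in knockout libraries of both treatments. CENPA, the histone H3 variant that marks the centromere, measured 0.648, 0.244 and 0.306 CPM in treated knockout libraries, against 1.48, 1.44 and 1.83 CPM in treated wild-type libraries (-1.97, SE 0.29, adjusted p = 8.8e-07). Without IFN-γ, CENPA stood at 4.90, 5.87 and 5.16 CPM in knockout and 6.78, 7.21 and 6.64 CPM in wild-type libraries. CENPA was low in every library, with 6 counts in its lowest, and did not overlap between genotypes in either treatment. Its untreated call (-0.37, SE 0.15, adjusted p = 0.04) was lost by DESeq2 (adjusted p = 0.093), with no low-count filter (adjusted p = 0.055) and in 5 of the 6 fits that left out an untreated library (adjusted p = 0.064 to 0.14). CENPF, a large kinetochore protein whose transcript peaks in G2 and mitosis, measured 5.998, 5.78 and 7.88 CPM in treated knockout libraries, against 16.8, 20.7 and 17.5 CPM in treated wild-type libraries (-1.48, SE 0.10, adjusted p = 1.1e-13). Untreated CENPF levels were 112, 107 and 118 CPM in knockout and 127, 119.8 and 110.2 CPM in wild-type libraries, where the genotypes overlapped (-0.082, adjusted p = 0.3). The kinetochore motor CENPE, itself a kinesin, averaged 3.55 ± 0.396 CPM in treated knockout and 9.52 ± 0.0910 CPM in treated wild-type libraries (-1.42; SD, n = 3 each). CENPK, a subunit of the inner kinetochore, averaged 0.916 ± 0.0498 CPM in treated knockout and 2.45 ± 0.591 CPM in treated wild-type libraries (-1.41). Of the other NDC80 complex subunits, NUF2 averaged 2.29 ± 0.224 CPM in treated knockout and 5.63 ± 1.06 CPM in treated wild-type libraries (-1.30), and SPC24 0.473 ± 0.223 CPM in treated knockout and 1.80 ± 0.223 CPM in treated wild-type libraries (-1.91).

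Each of the 10 mitotic kinesins was lower in the treated knockout, 9 of them by at least 1 on the log2 scale, with a median of -1.79. KIF23, the motor subunit of centralspindlin at the central spindle, had the lowest log2 fold change of all 50 genes. It measured 0.811, 0.570 and 0.459 CPM in knockout libraries with IFN-γ, against 5.33, 4.75 and 5.74 CPM in wild-type libraries with IFN-γ (-3.10, SE 0.19, adjusted p = 7.0e-15). Without IFN-γ, KIF23 stood at 19.1, 22.2 and 20.9 CPM in knockout and 28.8, 26.0 and 25.5 CPM in wild-type libraries (-0.37, adjusted p = 6.7e-04). The wild-type libraries of KIF23 were above the knockout libraries in each treatment, by a much wider margin with IFN-γ. KIF11, the tetrameric motor that pushes spindle poles apart, measured 3.08, 4.56 and 4.40 CPM in treated knockout libraries, against 11.1, 12.7 and 11.3 CPM in treated wild-type libraries (-1.54, SE 0.12, adjusted p = 7.4e-13). Untreated KIF11 levels were 41.7, 43.4 and 44.7 CPM in knockout and 49.9, 52.4 and 45.3 CPM in wild-type libraries, a narrow gap without overlap (-0.18, SE 0.073, adjusted p = 0.036). The untreated call of KIF11 was lost without the first or second untreated knockout library (adjusted p = 0.13 and 0.084) and without the first or second untreated wild-type library (adjusted p = 0.072 and 0.18). KIF20A, a motor of the central spindle and cytokinesis, measured 1.54, 0.733 and 1.45 CPM in treated knockout libraries, against 4.45, 5.24 and 4.04 CPM in treated wild-type libraries (-1.88, SE 0.18, adjusted p = 2.2e-10). Without IFN-γ, KIF20A stood at 36.7, 36.5 and 35.8 CPM in knockout and 36.2, 34.0 and 30.6 CPM in wild-type libraries. These untreated groups of KIF20A overlapped and the difference was not called (0.11, adjusted p = 0.28).

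The smallest kinesin difference was that of KIF20B, a motor active in late mitosis, at 10.7, 9.94 and 9.10 CPM in treated knockout libraries, against 12.3, 14.4 and 12.4 CPM in treated wild-type libraries (-0.40, SE 0.097, adjusted p = 8.5e-04). Untreated KIF20B levels were 30.4, 33.9 and 33.3 CPM in knockout and 40.02, 39.5 and 33.7 CPM in wild-type libraries. The untreated groups of KIF20B overlapped (-0.21, SE 0.076, adjusted p = 0.021; adjusted p = 0.092 to 0.12 without the first untreated knockout, the first untreated wild-type or the second untreated wild-type library). KIF20B kept more of its transcript under IFN-γ than the other kinesins of the list, in both genotypes. KIF18A, which damps chromosome movement at the metaphase plate, was the only member whose treated groups overlapped. It measured 0.892, 0.652 and 0.306 CPM in treated knockout libraries, against 0.882, 2.05 and 1.1 CPM in treated wild-type libraries (-1.16, SE 0.32, adjusted p = 0.0033), and without the second wild-type library with IFN-γ the difference was -0.71 and no longer called (adjusted p = 0.097). Untreated KIF18A levels were 4.75, 5.80 and 5.81 CPM in knockout and 7.66, 6.41 and 6.47 CPM in wild-type libraries, apart but not called (-0.32, adjusted p = 0.14; 0.033 with the compared libraries alone). KIF2C, a microtubule depolymerase at centromeres whose promoter window held neither element, averaged 2.47 ± 0.146 CPM in treated knockout and 11.9 ± 0.751 CPM in treated wild-type libraries (-2.272; SD, n = 3 each). KIFC1, a minus-end motor that focuses spindle poles, averaged 1.17 ± 0.412 CPM in treated knockout and 5.33 ± 0.673 CPM in treated wild-type libraries (-2.17), and KIF15, which supports the bipolar spindle, 1.21 ± 0.133 CPM in treated knockout and 4.83 ± 1.32 CPM in treated wild-type libraries (-2.0). KIF14, a cytokinesis motor, averaged 1.08 ± 0.362 CPM in treated knockout and 3.53 ± 0.647 CPM in treated wild-type libraries (-1.70), and the chromokinesin KIF4A 1.02 ± 0.1499 CPM in treated knockout and 2.86 ± 0.235 CPM in treated wild-type libraries (-1.48). The retrocopy KIF4B had 94 counts over all 12 libraries.

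Within the 6 chromosome structure genes, 4 were lower in the treated knockout by more than 2 on the log2 scale and 2, both SMC subunits, by less than 0.3. TOP2A, the topoisomerase that untangles sister chromatids, measured 8.35, 9.37 and 8.95 CPM in knockout libraries with IFN-γ, against 43.6, 52.1 and 42.6 CPM in wild-type libraries with IFN-γ (-2.38, SE 0.08, adjusted p = 3.3e-21). Without IFN-γ, TOP2A stood at 220.4, 232 and 222 CPM in knockout and 294, 264 and 255 CPM in wild-type libraries (-0.27, adjusted p = 8.4e-05). All knockout libraries of TOP2A were below the wild-type libraries of their treatment. MKI67, which encodes the proliferation antigen Ki-67 that coats mitotic chromosomes, measured 7.46, 8.88 and 9.10 CPM in treated knockout libraries, against 40.04, 50.01 and 43.98 CPM in treated wild-type libraries (-2.40, SE 0.087, adjusted p = 1.6e-20). Untreated MKI67 levels were 218, 233 and 223 CPM in knockout and 247, 264 and 223 CPM in wild-type libraries. Those untreated libraries of MKI67 overlapped, and their difference was not called (-0.12, SE 0.057, adjusted p = 0.079). It was called with library totals (adjusted p = 0.028), with no low-count filter (adjusted p = 0.022), with the compared libraries alone (adjusted p = 0.03) and without the third untreated wild-type library (-0.19, adjusted p = 0.012). NCAPG, a subunit of condensin I, measured 1.30, 1.67 and 1.64 CPM in treated knockout libraries, against 8.94, 12.7 and 10.6 CPM in treated wild-type libraries (-2.80, SE 0.15, adjusted p = 2.1e-16). Without IFN-γ, NCAPG stood at 30.7, 36.0 and 35.6 CPM in knockout and 39.9, 39.3 and 40.9 CPM in wild-type libraries. NCAPG was thus far apart with IFN-γ and close without it (-0.23; not called without the first untreated knockout library, adjusted p = 0.14, or the third untreated wild-type library, adjusted p = 0.061), and 33.1% of its exon bases overlap LCORL on the opposite strand. NCAPH, also of condensin I, averaged 1.405 ± 0.165 CPM in treated knockout and 6.77 ± 0.392 CPM in treated wild-type libraries (-2.266; SD, n = 3 each).

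SMC4, an ATPase core subunit of both condensins, measured 38.7, 40.5 and 40.9 CPM in knockout libraries with IFN-γ, against 47.8, 47.5 and 50.8 CPM in wild-type libraries with IFN-γ (-0.28, SE 0.056, adjusted p = 8.7e-05). Without IFN-γ, SMC4 stood at 89.6, 86.8 and 91.6 CPM in knockout and 121, 110.0 and 109 CPM in wild-type libraries (-0.34, SE 0.049, adjusted p = 6.2e-07). The SMC4 genotypes did not overlap in either treatment, and 25.6% of its exon bases overlap other genes, the longest overlap being with TRIM59 on the opposite strand. SMC2, the partner ATPase, measured 20.02, 23.9 and 24.2 CPM in treated knockout libraries, against 26.1, 26.1 and 26.8 CPM in treated wild-type libraries (-0.21, SE 0.076, adjusted p = 0.02). Untreated SMC2 levels were 38.6, 39.3 and 39.7 CPM in knockout and 46.1, 42.9 and 39.0 CPM in wild-type libraries, where 2 knockout libraries lay within the wild-type range. That difference was not called (-0.12, adjusted p = 0.15) except without the third untreated wild-type library (-0.18, adjusted p = 0.047). The treated difference of SMC2 was not called by DESeq2 (adjusted p = 0.051), without the first knockout library with IFN-γ (-0.13, adjusted p = 0.19) or without the third wild-type library with IFN-γ (adjusted p = 0.053).

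The chromosomal passenger complex, which corrects wrong attachments and steers cytokinesis, was lower in the treated knockout in all 4 of its subunits. AURKB, its kinase, measured 0.648, 0.652 and 0.612 CPM in knockout libraries with IFN-γ, against 4.41, 4.33 and 4.35 CPM in wild-type libraries with IFN-γ (-2.77, SE 0.20, adjusted p = 2.5e-13). Without IFN-γ, AURKB stood at 5.98, 6.92 and 7.49 CPM in knockout and 13.2, 14.03 and 11.5 CPM in wild-type libraries (-0.92, SE 0.11, adjusted p = 4.2e-08). AURKB had the lowest untreated genotype difference of the 50 genes, and its groups were well apart in both treatments. BIRC5, which encodes survivin, measured 2.43, 1.63 and 1.68 CPM in treated knockout libraries, against 8.42, 9.27 and 8.47 CPM in treated wild-type libraries (-2.19, SE 0.14, adjusted p = 1.3e-14). Untreated BIRC5 levels were 31.4, 28.1 and 29.3 CPM in knockout and 47.6, 49.8 and 42.6 CPM in wild-type libraries (-0.66, SE 0.077, adjusted p = 1.3e-08). BIRC5 likewise showed no overlap between the genotypes in either treatment. INCENP, the scaffold of the complex, measured 7.21, 9.65 and 7.03 CPM in treated knockout libraries, against 13.7, 13.98 and 11.04 CPM in treated wild-type libraries (-0.70, SE 0.11, adjusted p = 2.6e-06). Without IFN-γ, INCENP stood at 23.9, 26.1 and 24.2 CPM in knockout and 23.9, 25 and 24.99 CPM in wild-type libraries, which overlapped (adjusted p = 0.95). INCENP had the smallest treated difference of the 4. CDCA8, which encodes borealin, averaged 2.88 ± 0.398 CPM in treated knockout and 7.97 ± 1.30 CPM in treated wild-type libraries (-1.47; SD, n = 3 each).

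All 6 genes of spindle assembly and cytokinesis were lower in the treated knockout by at least 1 on the log2 scale, with a median of -1.86. TPX2, which activates Aurora A and nucleates spindle microtubules, measured 4.62, 4.40 and 3.52 CPM in knockout libraries with IFN-γ, against 17.5, 19.8 and 19.6 CPM in wild-type libraries with IFN-γ (-2.18, SE 0.095, adjusted p = 2.1e-18). Without IFN-γ, TPX2 stood at 70.0, 69.4 and 68.1 CPM in knockout and 98.7, 95.5 and 88.3 CPM in wild-type libraries (-0.45, adjusted p = 9.8e-08). TPX2 was lower in every knockout library of both treatments. ASPM, a spindle pole protein, measured 3.57, 3.09 and 3.86 CPM in treated knockout libraries, against 11.2, 11.8 and 10.3 CPM in treated wild-type libraries (-1.66, SE 0.12, adjusted p = 7.7e-13). Untreated ASPM levels were 66.0, 72.4 and 76.5 CPM in knockout and 83.3, 72.2 and 65.4 CPM in wild-type libraries. The untreated libraries of ASPM were interleaved between genotypes (adjusted p = 0.69). PRC1, the protein that bundles antiparallel microtubules of the central spindle, measured 3.81, 4.03 and 3.63 CPM in treated knockout libraries, against 8.18, 10.1 and 7.82 CPM in treated wild-type libraries (-1.19, SE 0.12, adjusted p = 9.0e-10). Without IFN-γ, PRC1 stood at 39.3, 43.3 and 43.4 CPM in knockout and 49.97, 44.2 and 41.7 CPM in wild-type libraries, with overlap (adjusted p = 0.25). PRC1 had the smallest treated difference of these 6 genes. The furrow scaffold ANLN averaged 2.15 ± 0.280 CPM in treated knockout and 9.17 ± 2.10 CPM in treated wild-type libraries (-2.09) and DLGAP5, a spindle stabiliser, 1.01 ± 0.215 CPM in treated knockout and 4.19 ± 0.242 CPM in treated wild-type libraries (-2.05; SD, n = 3 each). HMMR, a spindle-associated hyaluronan-binding protein, averaged 2.30 ± 0.0879 CPM in treated knockout and 5.92 ± 0.813 CPM in treated wild-type libraries (-1.37).

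Without IFN-γ the knockout was lower for 29 of the 50 genes, higher for 0 and not called for 21, where 24.8% of all tested genes were lower and 25.4% higher, 50.1% in all. The median log2 fold change was -0.20, against 0.01 over all tested genes, and 0 of the 50 were lower by at least 1, where 6.1% of all tested genes were. The largest untreated differences were those of AURKB (-0.92), FOXM1 (-0.72), BIRC5 (-0.66), NDC80 (-0.53) and UBE2C (-0.52). Knockout libraries were wholly below wild-type libraries for 31 genes and wholly above them for 0, where 27.4% of all tested genes had knockout libraries wholly below. The genes not called included 6 of the 8 centromere and kinetochore genes and 4 of the 6 genes of spindle assembly and cytokinesis. Levels in the untreated knockout ranged from 52.7% of wild type for AURKB to 108% for KIF20A, with a median of 87.0%. These small differences were the least stable of the 5 comparisons: 12 of the 29 called genes lost their call under at least 1 alternative setting, namely ANLN, AURKA, BUB1B, BUB3, CENPA, KIF11, KIF14, KIF20B, KIF4A, NCAPG, PLK1 and PTTG1. PLK1 moved to -0.12 without the second untreated wild-type library (adjusted p = 0.23), against -0.18 with all libraries. In all, 20 to 29 genes were called when single libraries were left out.

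**Figure D2:**
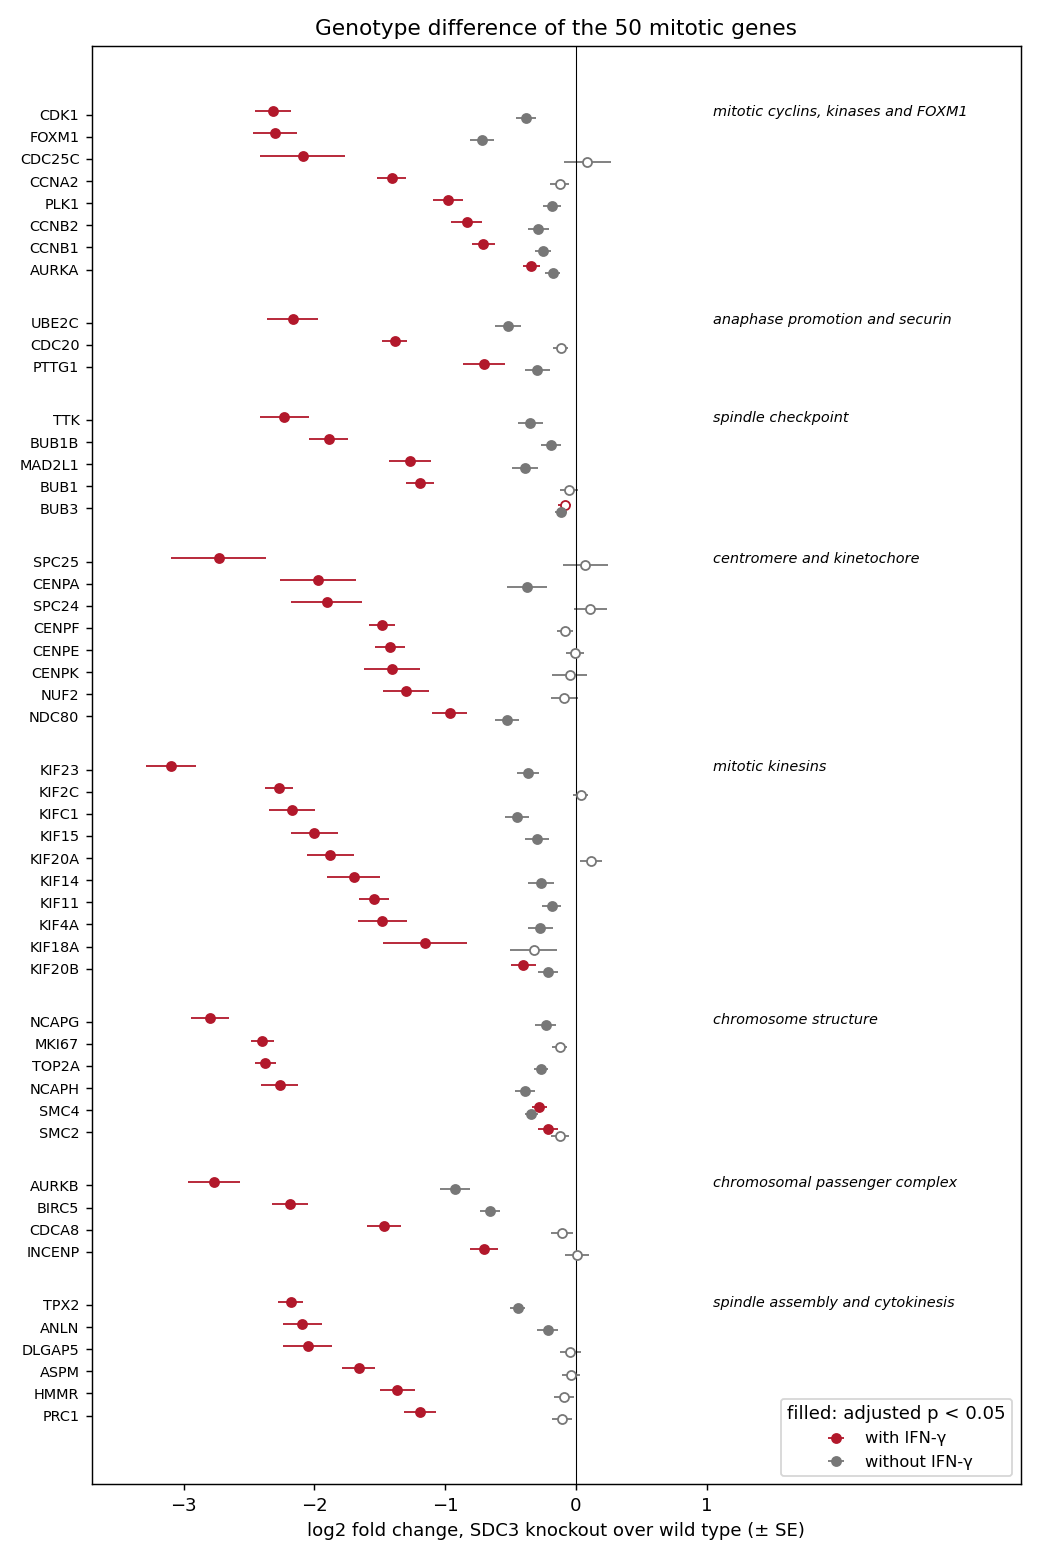
Log2 fold change of SDC3 knockout over wild type for the 50 mitotic genes, grouped by role and ordered within each role by the difference with IFN-γ, with bars of 1 SE from edgeR. Red points are cells with IFN-γ and grey points cells without it, filled where the adjusted p was under 0.05. Red points reach from -3.10 for KIF23 to -0.09 for BUB3, while no grey point lies below -0.92.

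All 50 genes were lower with IFN-γ than without it in both genotypes. The harvest time of untreated cells was not given, so IFN-γ and time after PMA cannot be told apart here. In the knockout the median log2 fold change with IFN-γ was -3.86 and in the wild type -2.32, against -0.05 and -0.02 over all tested genes. Over all tested genes 31.8% fell in the knockout and 27.9% in the wild type, and 61.1% and 56.5% were called in either direction. In the knockout 48 of the 50 fell by at least 1 on the log2 scale, and in the wild type 46 did, against 10.9% and 8.81% of all tested genes. Libraries with IFN-γ were wholly below untreated libraries for all 50 genes in each genotype, against 34.6% of all tested genes in the knockout and 30.3% in the wild type. The median gene kept 6.90% of its untreated level in the knockout (2.97% to 83.0%) and 20.0% in the wild type (12.7% to 81.4%). With library totals in place of TMM scaling the median responses were -4.15 in the knockout and -2.57 in the wild type, and that scaling moved the median of all genes by -0.30 and -0.25.

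The least left in the knockout was that of KIF23, with 2.97% of its untreated level, against 19.7% in the wild type. DLGAP5 kept 3.14% in the knockout and 12.7% in the wild type, and KIF20A kept 3.44% in the knockout and 13.7% in the wild type. The proliferation antigen gene MKI67 kept 3.77% in the knockout and 18.3% in the wild type. At the other end BUB3 kept 83.0% in the knockout and 81.4% in the wild type. Next to it, SMC2 kept 57.9% in the knockout and 61.8% in the wild type, and AURKA 47.7% in the knockout and 53.4% in the wild type. SMC4 kept 44.8% in the knockout and 42.9% in the wild type. INCENP kept 32.1% in the knockout and 52.6% in the wild type. BUB3, SMC2, AURKA, INCENP and SMC4 were the 5 least lowered genes in each genotype. Across the 50 genes the responses of knockout and wild type, which share no library, correlated at a Pearson's r of 0.845 and a Spearman's rho of 0.691. This is a description, since genes are not independent replicates and the libraries were scaled together.

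The response to IFN-γ itself differed between the genotypes for 42 of the 50 genes, all 42 falling further in the knockout, where 7.86% of all tested genes had a lower and 7.61% a higher response there. This difference of responses, tested as the interaction of genotype and IFN-γ in the same edgeR fit, had a median of -1.42 over the 50 genes, against -0.03 over all tested genes, and 37 were at -1 or below, against 1.65% of all tested genes. SPC25 (-2.80, SE 0.41, adjusted p = 4.5e-06), KIF23 (-2.73, SE 0.22, adjusted p = 3.5e-11) and NCAPG (-2.57, SE 0.17, adjusted p = 9.0e-13) had the lowest values. For KIF2C it was -2.31 (SE 0.12), for MKI67 -2.28 (SE 0.11) and for TOP2A -2.11 (SE 0.098), each with an adjusted p below that of every other member. The 8 genes not called were AURKA, KIF20B, NDC80, PTTG1, SMC4, KIF18A, SMC2 and BUB3. Their differences ran from -0.83 for KIF18A (SE 0.37, adjusted p = 0.14) to 0.06 for SMC4 (SE 0.074, adjusted p = 0.66). Of these, NDC80 was near the threshold (-0.44, SE 0.16, adjusted p = 0.061) and was called under 4 alternative settings, while CCNB2, called at -0.55 (adjusted p = 0.0066), was not called without the second knockout library with IFN-γ (adjusted p = 0.051). Both a lower level with IFN-γ and a further fall were called in 23 genes that were also lower in the untreated knockout and in 19 genes that were not called there.

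**Figure D3:**
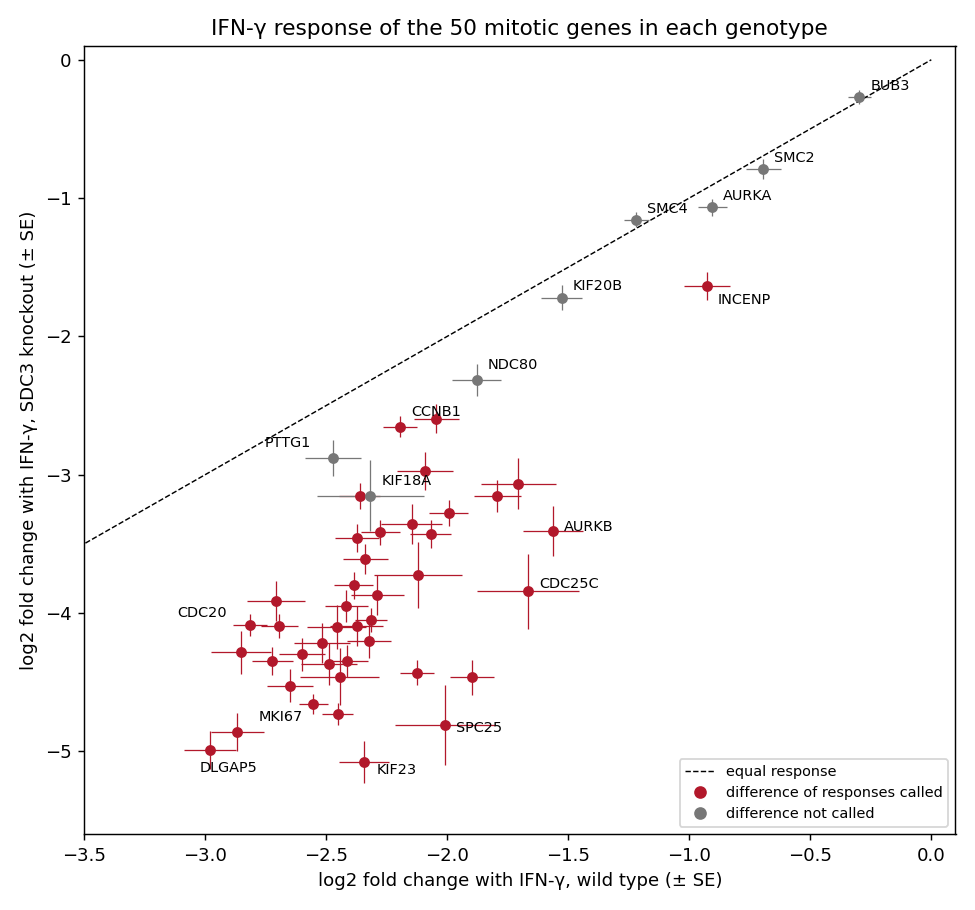
Log2 fold change with IFN-γ over untreated in SDC3 knockout (vertical axis) against that in wild type (horizontal axis) for the 50 mitotic genes, with bars of 1 SE from edgeR and a dashed line of equal response. Red points are genes whose difference of responses was called. The 42 red points lie under the line. BUB3, SMC2, SMC4, AURKA and KIF20B lie nearest to it.

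Per length of transcript, the genes differed widely in abundance. In untreated wild-type cells the mean level ran from 6.50 TPM (counts divided by exon length and scaled to the same total in every library) for KIF18A to 276 TPM for CDC20, with TOP2A at 186, TPX2 at 116 and CCNB1 at 114 TPM, and the median gene at 36.4 TPM. In treated knockout cells the median gene was at 1.90 TPM, in treated wild-type cells at 6.67 TPM and in untreated knockout cells at 31.5 TPM. The order of levels changed with IFN-γ. The highest in treated knockout cells were BUB3 (36.5 TPM), AURKA (32.7 TPM), SMC4 (16.9 TPM) and SMC2 (12.5 TPM), while CDC20 stood at 12.1 and TOP2A at 4.93 TPM. Exon lengths were those given in the count table.

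The promoter elements were set beside the differences as a description. The 32 genes with TTTGAA in a window had a median knockout over wild-type log2 fold change of -1.51 with IFN-γ (-3.10 to -0.21), and the 11 genes with windows but no TTTGAA had a median of -1.42 (-2.77 to -0.70). In the knockout response to IFN-γ the median was -3.88 with TTTGAA and -3.42 without it, and in the wild-type response -2.34 with it and -2.28 without it. In the difference of responses the order was the other way, at -1.38 with TTTGAA and -1.41 without it. The untreated genotype median was -0.20 with TTTGAA and -0.05 without it. The 7 genes with no window had a treated genotype median of -2.18, below both groups with windows. KIF2C and CENPE, the 2 genes with neither element in their windows, had log2 fold changes of -2.272 for KIF2C and -1.42 for CENPE in the treated knockout, and CCNB2, with 3 CCAAT matches in its printed stretch, of -0.84. The ranges of genes with and without TTTGAA overlapped over most of their length. Among 32 windows of other mitotic regulators 16 held TTTGAA and 19 CCAAT. Windows of replication genes held TTTGAA in 3.6% and CCAAT in 64.3%.

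Other genes of the same machinery were counted in lists beside the 50, also chosen with earlier results known. Over all tested genes, 24.3% were lower and 22.9% higher in the treated knockout. Of 31 other mitotic regulators, 28 were lower in the treated knockout, 0 higher and 3 not called, with a median of -0.97. They ran from PBK, a mitotic kinase (0.0811, 0.326 and 0.459 CPM in treated knockout libraries, against 2.24, 1.52 and 2.61 CPM in treated wild-type libraries; -2.84, SE 0.37, adjusted p = 1.3e-07), to the chromokinesin KIF22 (26.5, 27.7 and 26.3 CPM in treated knockout libraries, against 24.5, 24.7 and 24.5 CPM in treated wild-type libraries; 0.13, adjusted p = 0.11). Of 31 other centromere and kinetochore genes, 16 were lower, 3 higher and 12 not called, with a median of -0.27, from SKA3 of the outer kinetochore (-2.82, SE 0.20, adjusted p = 3.6e-13) to PMF1 of the MIS12 complex (0.60, SE 0.09, adjusted p = 1.5e-06). Of 24 replication genes, 22 were lower and 0 higher, with a median of -0.79, from the initiation factor MCM10 (-3.83, SE 0.28, adjusted p = 3.6e-13) to RRM1, a subunit of ribonucleotide reductase (0.012, adjusted p = 0.91).

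Without IFN-γ, 20 of the 31 other mitotic regulators were lower and 1 higher in the knockout, the spindle protein gene TACC3 (0.15, SE 0.046, adjusted p = 0.0085). Over all tested genes, 24.8% were lower and 25.4% higher there. With IFN-γ 30 of these 31 regulators fell in the knockout and 30 in the wild type, against 31.8% and 27.9% of all tested genes. The difference of responses was called below 0 for 23 and above 0 for 1, against 7.86% and 7.61% of all tested genes. The gene that rose in both genotypes and further in the knockout was LMNB1, which encodes lamin B1 (1.92 in the knockout and 1.54 in the wild type; difference 0.37, SE 0.066, adjusted p = 8.6e-05). Of the 31 other centromere and kinetochore genes, 12 were lower and 4 higher in the untreated knockout, and the difference of responses was called below 0 for 9 and above 0 for none. For the 24 replication genes, 15 were lower in the untreated knockout, 24 fell with IFN-γ in the knockout and 23 in the wild type, and 14 fell further in the knockout. TACC3 and LMNB1 were named after their values were seen.

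Other condensin, cohesin and APC/C subunits and the transport kinesins were counted as well. The list of transport kinesins also held KIF2A, a microtubule depolymerase like KIF2C. In the treated knockout 24.3% of all tested genes were lower and 22.9% higher. Of 13 other condensin and cohesin subunits, 4 were lower and 4 higher in the treated knockout with a median of 0.01, from NCAPD2 of condensin I (-0.89, SE 0.053, adjusted p = 4.0e-15) to the cohesin subunit STAG2 (0.23, SE 0.053, adjusted p = 4.7e-04). Of 17 APC/C subunits and regulators, 4 were lower and 8 higher with a median of 0.11, from the inhibitor FBXO5 (-0.54, SE 0.11, adjusted p = 9.1e-05) to the interphase activator FZR1 (0.33, SE 0.063, adjusted p = 5.9e-05). Of 18 tested transport kinesins and their light chains or adaptors, 7 were lower and 5 higher with a median of -0.08, from KIF17 (-0.94, SE 0.12, adjusted p = 9.5e-08) to the adaptor KIFAP3 (0.84, SE 0.077, adjusted p = 9.7e-11), against 10 of 10 mitotic kinesins lower. The difference of responses was called below 0 for 3 of 13 condensin and cohesin subunits and above 0 for 1 of 17 APC/C genes, where 7.86% of all tested genes were below 0 and 7.61% above. Of the 18 tested transport kinesins it was below 0 for 3 and above 0 for 8, against the same shares of all tested genes.

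**Figure D4:**
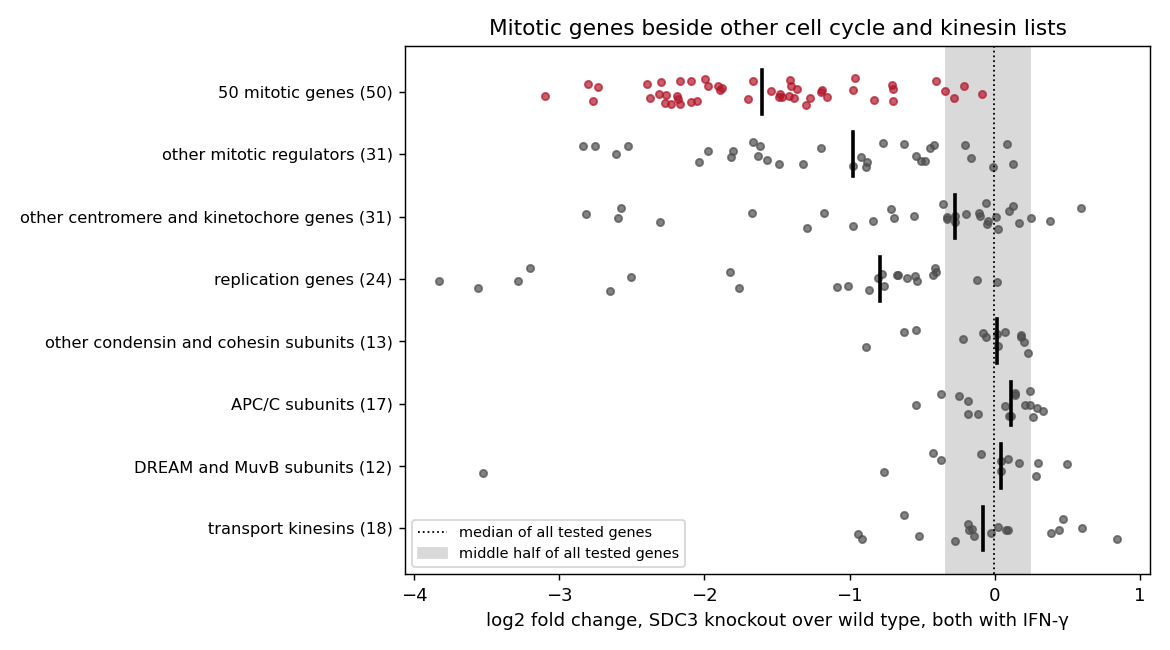
Log2 fold change of SDC3 knockout over wild type, both with IFN-γ, for the 50 mitotic genes (red, top row) and 7 other lists (grey), with the number of tested genes in brackets and a black bar at each list's median. The dotted line and grey band are the median and the middle 50% of all tested genes. Medians run from -1.60 in the top row to 0.11 for APC/C subunits.

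Known regulators of these genes were read last. Of 12 DREAM and MuvB subunits, 4 were lower and 3 higher in the treated knockout, with a median of 0.04, shares near those of all tested genes (24.3% lower and 22.9% higher). MYBL2, the B-MYB subunit that turns MuvB into an activator, measured 1.86, 2.16 and 1.38 CPM in treated knockout libraries, against 20.5, 24.02 and 17.5 CPM in treated wild-type libraries (-3.53, SE 0.13, adjusted p = 2.1e-20). Without IFN-γ, MYBL2 stood at 67.1, 63.5 and 61.6 CPM in knockout and 87.9, 93.5 and 91.1 CPM in wild-type libraries. LIN54, the TTTGAA-binding subunit, was at 0.28 (adjusted p = 0.0015) and LIN9, a core subunit, at -0.42 (adjusted p = 0.0058) with IFN-γ. Among 5 tested CDK inhibitors, 3 were higher and 1 lower in the treated knockout. CDKN1A, which encodes p21, measured 667, 647 and 647 CPM in treated knockout libraries, against 511, 484 and 463 CPM in treated wild-type libraries (0.43, SE 0.039, adjusted p = 6.3e-11). Untreated CDKN1A levels were 330.2, 326 and 324 CPM in knockout and 305, 323 and 324 CPM in wild-type libraries. CDKN1A was thus higher in every treated knockout library, while its untreated groups lay close together. CDKN1C was higher (1.07), CDKN2C was higher (0.34), CDKN2D was lower (-1.01) and CDKN1B was not called (-0.12, adjusted p = 0.11), all with IFN-γ. Genotype differences among the 5 inhibitors were not confined to treated cells. In the untreated knockout 2 of the 5 were higher, 1 of them by at least 1 on the log2 scale, 1 was lower and 2 were not called. The difference of responses was called above 0 for 1, below 0 for 1 and not called for 3, against 7.61% above and 7.86% below over all tested genes.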

How the data were processed

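Paired-end reads of stranded mRNA libraries were counted per gene by the authors with featureCounts 2.0.3 against hg38, per the file headers, and the deposited values are whole-number counts with the exon length of each gene. The header records that exons were counted, that only primary alignments were used, that chimeric fragments were left out and that no strand option was set, so reads of a gene and of an overlapping antisense gene are mixed. Per the same header the mates of a pair each added a count, and 70.4% to 73.3% of small counts were even. The submitters' processing notes name FastQC, MultiQC 1.13, fastp 0.23.2, BWA, STAR 2.7.10b, Picard 2.27.5, Subread and featureCounts. The aligner behind the counts and the annotation release were not given in the sources used here.

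From the counts, all 12 libraries were fitted together by group with edgeR 4.0.16 (R 4.3.3, limma 3.58.1): filterByExpr left 17119 of 58051 genes, with TMM scaling and the quasi-likelihood test, 2-sided, with Benjamini-Hochberg adjustment over all tested genes and calls under 0.05. Standard errors were the log2 fold change divided by the square root of F. CPM used TMM-scaled library sizes, and TPM used the listed exon lengths. Every library had its group from its label. Libraries of a group differed beyond counting noise (chi-square per gene 2.80 to 7.32). With 3 libraries a group, small differences are found unevenly, and floors cover counting error only. The 50 members and the other lists were chosen with earlier results of these data known. Library values are given for a listed panel of well-known genes of each role, the gene of each role with the lowest and with the highest treated genotype difference, and any gene not called there. Of each other list, the lowest and highest gene are named, with DREAM, MuvB and CDK inhibitor genes at choice. Promoter windows came from RefSeq (GRCh38.p14) by symbol. Alternatives were DESeq2 1.42.0, other scalings and filters, fits of the compared libraries alone, a replicate block, halved counts, a fold minimum and leaving out each library. The fits were also run on simulated counts in which a small set of genes was changed, in the treated knockout alone. Far more genes were called in these data, so that run does not check the scaling or the error rate here. Summaries and plots used Python 3.11.15, pandas 2.3.3, numpy 2.4.6 and matplotlib 3.10.9.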

Additional observations from a re-analysis of the deposited data

Results flagged for a closer look

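The difference of the IFN-γ responses (knockout response minus wild-type response, log2, edgeR interaction with all 12 libraries) passed the threshold of an adjusted p of 0.05 for 42 of the 50 genes, each below 0, where 7.86% of all tested genes were called below 0. Among the cyclins, entry kinases and FOXM1, these were CCNA2 at -1.28, CCNB1 at -0.46, CCNB2 at -0.55, CDK1 at -1.93, CDC25C at -2.18, PLK1 at -0.79 and FOXM1 at -1.58. Of the anaphase genes, these were CDC20 at -1.27 and UBE2C at -1.64. In the spindle checkpoint, these were BUB1 at -1.14, BUB1B at -1.70, MAD2L1 at -0.88 and TTK at -1.88. Among centromere and kinetochore genes, these were CENPA at -1.60, CENPE at -1.41, CENPF at -1.40, CENPK at -1.36, NUF2 at -1.21, SPC24 at -2.02 and SPC25 at -2.80. The kinesins comprised KIF2C at -2.31, KIF4A at -1.21, KIF11 at -1.36, KIF14 at -1.43, KIF15 at -1.70, KIF20A at -1.99, KIF23 at -2.73 and KIFC1 at -1.72. For chromosome structure, these were NCAPG at -2.57, NCAPH at -1.88, TOP2A at -2.11 and MKI67 at -2.28. In the chromosomal passenger complex, these were AURKB at -1.84, BIRC5 at -1.53, CDCA8 at -1.36 and INCENP at -0.71. Of the spindle assembly and cytokinesis genes, these were PRC1 at -1.09, TPX2 at -1.74, ANLN at -1.88, ASPM at -1.63, DLGAP5 at -2.01 and HMMR at -1.27. All 42 values come from the same 12 libraries and are not separate observations of the conditions.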

How the results depend on the processing

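The lower counts and medians of the 50 genes kept their direction in all 5 comparisons under every alternative, and 0 genes were called higher under any. Leaving out single libraries gave 48 to 49 genes lower (median -1.69 to -1.52) for knockout over wild type with IFN-γ, 20 to 29 (-0.24 to -0.16) without it, 50 for IFN-γ in the knockout (-3.90 to -3.74) and in the wild type (-2.36 to -2.28), and 41 to 43 (-1.48 to -1.36) for the difference of responses. With library totals alone the median IFN-γ response moved to -4.15 in the knockout and -2.57 in the wild type. Requiring 1 on the log2 scale left 0 genes lower in the untreated knockout. DESeq2 called 48 genes lower in the treated and 25 in the untreated knockout. Replicate numbers did not pair the libraries (correlation of same-numbered deviations -0.09 to 0.11), and a replicate block gave 49, 28, 50, 50 and 42 genes lower in the comparisons as listed above. In the untreated genotype comparison the block lost BUB3 (adjusted p = 0.056) and CENPA (0.051) and gained MKI67 (0.044). The untreated genotype comparison lost 54 single-gene calls in 12 genes over 20 alternatives and gained 9. Values that changed sign were all uncalled and near 0. In the untreated comparison these were 9 genes. When single libraries were left out, these ran from -0.032 to 0.033 for INCENP, -0.00024 to 0.16 for CDC25C, -0.052 to 0.073 for CENPE, -0.12 to 0.026 for CENPK, -0.12 to 0.058 for ASPM, -0.11 to 0.057 for DLGAP5, -0.20 to 0.068 for NUF2, -0.055 to 0.18 for SPC25 and -0.0025 to 0.063 for KIF2C. INCENP was also at -0.0037 by DESeq2, -0.0031 with RLE size factors, -0.026 with library totals and -0.0074 with the compared libraries only. The difference of responses of BUB3 was -0.017 with library totals and -0.021 to 0.068 when single libraries were left out. The cause of these changes was not tested. No separate fit of compared libraries exists for the difference of responses, which needs all 4 groups. Depth limits SPC25, CENPA, SPC24, CDC25C and KIF18A in the treated knockout, each with fewer than 10 counts in at least 1 library.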
